A study of Homo sapiens with 57 samples.

Results

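MALAT1 and NEAT1 are nuclear long noncoding RNAs, read by RNA polymerase II from neighbouring genes on chromosome 11 and kept in the nucleus. Their transcripts were chosen by identifier, with no rule on measured values, though earlier results of these data were known. They were ENST00000534336 for MALAT1, ENST00000501122 for the long form of NEAT1 and ENST00000499732 for its short form. These are 3 of the 228715 transcripts listed in each table, and all 3 passed the filter on low counts. They were measured by sequencing of poly(A)-selected RNA from HCT116, a cell line from a human colorectal tumour, with 3 libraries for each of 3 groups, or 9 in all. The series holds 57 samples, and the 48 with other measurements are not analysed here.

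All 9 libraries carried an Spt5-HA-dhfr fusion, which serves as a degron, and were grown without its stabilising ligand trimethoprim (TMP). An Avi-tagged fragment of Spt5, residues 1 to 820, was expressed from a pCW57 construct by doxycycline at 2 ug/ml for 24 hours. Spt5 binds RNA polymerase II and helps it pause near promoters and then elongate. Each group carried another form of its CTR1 region, which the labels call WT, TA7 and TE7, so the WT cells too expressed the truncated fragment on top of the degron. The labels do not say whether each line is 1 clone, so the form and the line cannot be told apart. Nor do they say whether replicates came from separate cultures. The p-values are thus set against the spread between libraries, which may be technical.

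MALAT1 concentrates in nuclear speckles, the domains rich in splicing factors. It is cut at its 3' end by RNase P and ends in a stable triple helix in place of a poly(A) tail. NEAT1 builds paraspeckles, nuclear bodies that hold RNA-binding proteins such as NONO and SFPQ. Its 2 main forms start at the same promoter: the short form ends at an early poly(A) site and has a tail, while the long form reads through that site, ends like MALAT1 without a tail, and is the one that paraspeckles need. Selection with oligo-dT therefore captures these RNAs unequally, and levels here are of what was captured.

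The MALAT1 row is 8708 bases long, close to the 8779 bases that RefSeq (GRCh38.p14) gives the gene. The long NEAT1 row is 22743 bases long, which equals the RefSeq length of the gene, and is 6.61 times as long as the short row of 3441 bases. The tables give no positions, so the end of the short row was not compared with the known early poly(A) site. RefSeq also lists an antisense gene, TALAM1, over MALAT1, and since the library type is not given in the sources used here, reads of the 2 strands may not be told apart. The tables pair no transcript with a gene, so other transcripts of NEAT1 and MALAT1 in them were not summed, and reads can move between overlapping transcripts. The short and long rows may therefore hold only part of the reads of NEAT1, which limits every value of the short form and of the ratio given here.

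RefSeq gives 2 start windows for MALAT1, shown because Spt5 acts on polymerase soon after it starts, and these are the annotated starts of the gene. Each runs from 250 bases before an annotated start to 50 after it, on the plus strand of GRCh38.p14, at chr11:65497488-65497787 and chr11:65498795-65499094. Capitals mark the GC box GGGCGG or its reverse complement CCGCCC, and the TATA box TATAAA or its reverse complement TTTATA.
MALAT1 upstream start: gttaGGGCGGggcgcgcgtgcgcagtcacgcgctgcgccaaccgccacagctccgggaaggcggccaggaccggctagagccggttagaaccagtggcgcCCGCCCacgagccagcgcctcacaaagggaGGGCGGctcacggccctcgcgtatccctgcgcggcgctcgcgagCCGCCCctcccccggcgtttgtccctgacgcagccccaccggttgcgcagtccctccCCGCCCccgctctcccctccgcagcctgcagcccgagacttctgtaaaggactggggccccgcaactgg
MALAT1 downstream start: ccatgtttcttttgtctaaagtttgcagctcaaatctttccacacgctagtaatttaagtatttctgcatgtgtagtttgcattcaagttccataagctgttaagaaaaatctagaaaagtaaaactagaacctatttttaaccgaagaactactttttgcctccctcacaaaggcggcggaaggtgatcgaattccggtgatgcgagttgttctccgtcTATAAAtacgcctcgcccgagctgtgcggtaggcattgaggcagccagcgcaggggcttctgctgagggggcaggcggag
The upstream window is 73.7% G and C and holds 5 GC boxes and 0 TATA boxes. The downstream window is 46.0% G and C and holds 1 TATA box, which begins 30 bases before the start, and 0 GC boxes. Of all 35116 RefSeq windows of 300 bases, 45.0% hold a GC box and 11.5% a TATA box by the same letters. These matches describe the sequence only, and the RNA levels do not say which start was used.

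The libraries held 64364751 to 90805283 estimated reads. WT replicate 1 stood apart: its TMM scaling factor was 0.92 against 0.971 to 1.037 elsewhere, and it had the fewest transcripts with reads, 87229. It was also the lowest of the 9 libraries for each of the 3 transcripts, so every comparison with WT is given with and without it. That choice rests partly on the values tested here, and leaving out the lowest library raises the WT mean and narrows the WT spread. Calls made without it are thus not independent evidence. Levels are in CPM, the usual count relative to library size, here after TMM scaling, and in TPM, the deposited value per effective length. Only TPM serves to compare different RNAs, and then only as captured, since oligo-dT selection captures them unequally.

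MALAT1 was at 22.3, 50.5 and 48.5 CPM in WT replicates 1, 2 and 3. In TA7 it was at 38.6, 44.1 and 40.8 CPM, and in TE7 at 38.2, 37.6 and 35.9 CPM. WT replicates 2 and 3 were the highest of the 9 libraries, and WT replicate 1 was far below all others. The TE7 libraries lay just below the TA7 libraries without overlap, at 38.2 against 38.6 CPM where nearest. Groups did not overlap for 31.5% of transcripts in TE7 vs TA7. The group means were 40.4 ± 15.7 CPM in WT, 41.1 ± 2.81 in TA7 and 37.2 ± 1.23 in TE7 (SD, n = 3). Without its replicate 1, the WT libraries averaged 49.5 CPM.

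The long form of NEAT1 was at 5.36, 8.85 and 7.19 CPM in WT. It was at 7.47, 6.37 and 6.87 CPM in TA7 and at 5.62, 6.72 and 6.25 CPM in TE7. The 3 groups overlapped, with means of 7.13 ± 1.75, 6.9 ± 0.55 and 6.2 ± 0.55 CPM (SD, n = 3). The long form had 321 to 594 estimated reads per library, the fewest of the 3 transcripts outside WT replicate 1.

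The short form of NEAT1 was at 0, 25.5 and 17.0 CPM in WT. In TA7 it was at 38.7, 28.0 and 28.9 CPM, and in TE7 at 43.9, 43.0 and 51.0 CPM. For this row the groups stood in the order WT, TA7, TE7 with no overlap between any of them. This held for no other of the 3 transcripts. The row may hold only part of the reads of NEAT1, so the order need not hold for the gene. The share of all transcripts with such an order was not counted. By pairs, groups did not overlap for 14.1% of transcripts in TA7 vs WT, 32.9% in TE7 vs WT and 31.5% in TE7 vs TA7. The means were 14.2 ± 13.0 CPM in WT, 31.9 ± 5.91 in TA7 and 46.0 ± 4.42 in TE7 (SD, n = 3).

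The value of 0 in WT replicate 1 is an estimate of 0 reads among 65194446, against 1186 reads or more in each of the other libraries. Counting error alone would allow 3 reads, or 0.046 CPM before scaling, but the estimate also depends on how shared reads were divided, and the long form had 321 reads in the same library. Such zeros were rare but not confined to that library. Transcripts with at least 1000 reads in each of the other 8 libraries and under 1 read in the remaining one numbered 5 in WT replicate 1, and from 0 to 4 in the other libraries. A zero for this row does not show that the NEAT1 gene was silent there.

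**Figure D1:**
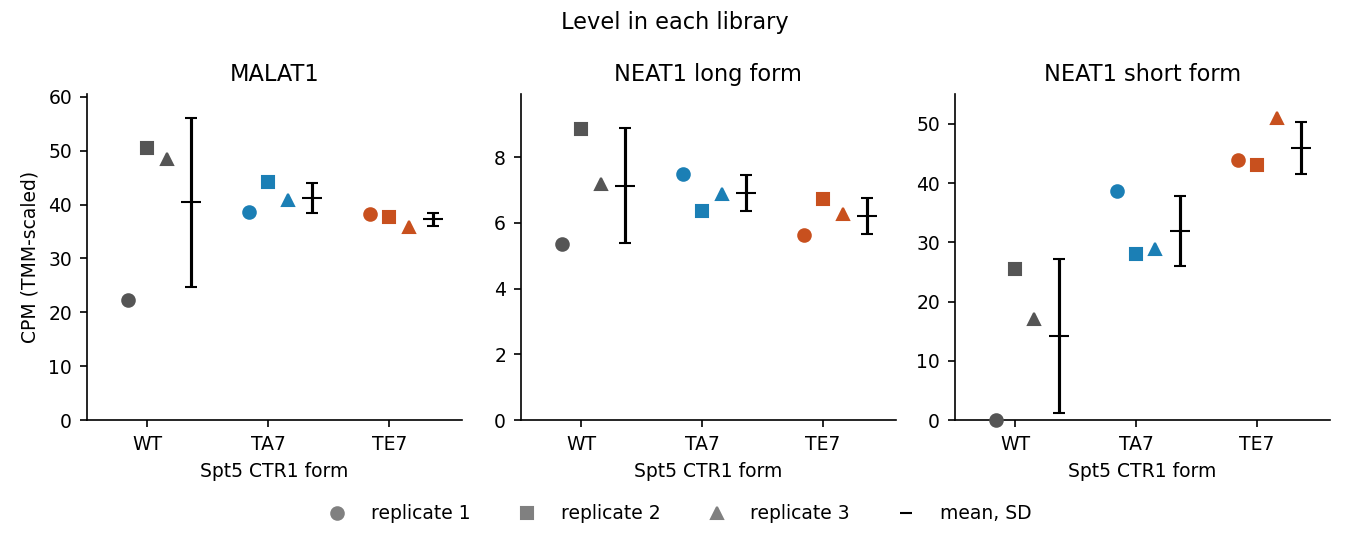
Level of MALAT1 and of the long and short forms of NEAT1 in each library, in CPM after TMM scaling, by CTR1 form, with the mean and SD of 3 libraries in black. WT replicate 1 is the lowest library in each panel, and the short form runs from 0 in WT replicate 1 to 51.0 CPM in TE7 replicate 3.

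Per length, and as captured by oligo-dT, the short form of NEAT1 was the most abundant of the 3 in 7 of 9 libraries. The exceptions were WT replicates 1 and 3. Its TPM was 6.91 and 9.82 in the WT libraries other than replicate 1, 11.1 to 14.9 in TA7 and 15.0 to 18.7 in TE7. MALAT1 was at 3.25, 8.58 and 8.7 TPM in WT, at 6.27 to 7.39 in TA7 and at 5.55 to 5.63 in TE7. The long form of NEAT1 was lowest except in WT replicate 1, where the short form was at 0, and stayed between 0.28 and 0.535 TPM. In TA7 and TE7 the order short form, MALAT1, long form held in every library, with no overlap between neighbours in that order. In WT, MALAT1 and the short form were not separated.

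MALAT1 is known as an abundant nuclear RNA. By TPM this row ranked between 10947 and 19858 in the 9 libraries. Effective length is the length that the quantification counts as open to reads, estimated per library. It was not the full length less a constant. In WT replicate 2 it was 7048 of 8708 bases for MALAT1, 19839 of 22743 for the long form and 3111 of 3441 for the short form. Whether a bias correction entered it is not given in the sources used here. For MALAT1 the effective length was 80.7% to 88.8% of the full length. For transcripts of 8000 bases or more the median was 95.8% to 96.8%. The share for MALAT1 was 80.7% to 80.9% in WT replicates 2 and 3 and 83.5% to 88.8% in TE7. The mean level in these groups was 8.64 against 5.6 TPM and 49.5 against 37.2 CPM, so the groups lay further apart in TPM, and the part of effective length in this was not tested.

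The first comparison asks whether cells with the TE7 form differ from WT in these RNAs. With all 9 libraries none of the 3 transcripts was called in edgeR's quasi-likelihood test at a Benjamini-Hochberg adjusted p of 0.05, where 9.4% of the 78478 tested were. For MALAT1 the log2 change, TE7 minus WT, was -0.12 ± 0.27 (SE, 95% interval -0.74 to 0.50, edgeR adjusted p = 0.848). The long form of NEAT1 differed by -0.20 ± 0.19 (interval -0.65 to 0.24, edgeR adjusted p = 0.589). The short form differed by 1.70 ± 1.3 (interval -1.31 to 4.71, edgeR adjusted p = 0.483). Its groups did not overlap, as was the case for 32.9% of transcripts in this comparison.

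Without WT replicate 1, a library set aside partly for its values of these transcripts, 2 of the 3 transcripts were called, in opposite directions. MALAT1 was lower in TE7, by -0.41 ± 0.07 on the log2 scale (interval -0.57 to -0.24, edgeR adjusted p = 0.0142), or 1.33-fold. The short form of NEAT1 was higher, by 1.12 ± 0.22 (interval 0.59 to 1.64, edgeR adjusted p = 0.0225), or 2.17-fold. The long form, at -0.37 ± 0.15 (interval -0.73 to -0.0038), did not pass (edgeR adjusted p = 0.186). In that fit of 8 libraries, with 2 in WT, 11.7% of 84939 transcripts were called, 6.31% higher and 5.34% lower. All 3 members had WT and TE7 libraries that did not overlap, as did 46.9% of transcripts.

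**Figure D2:**
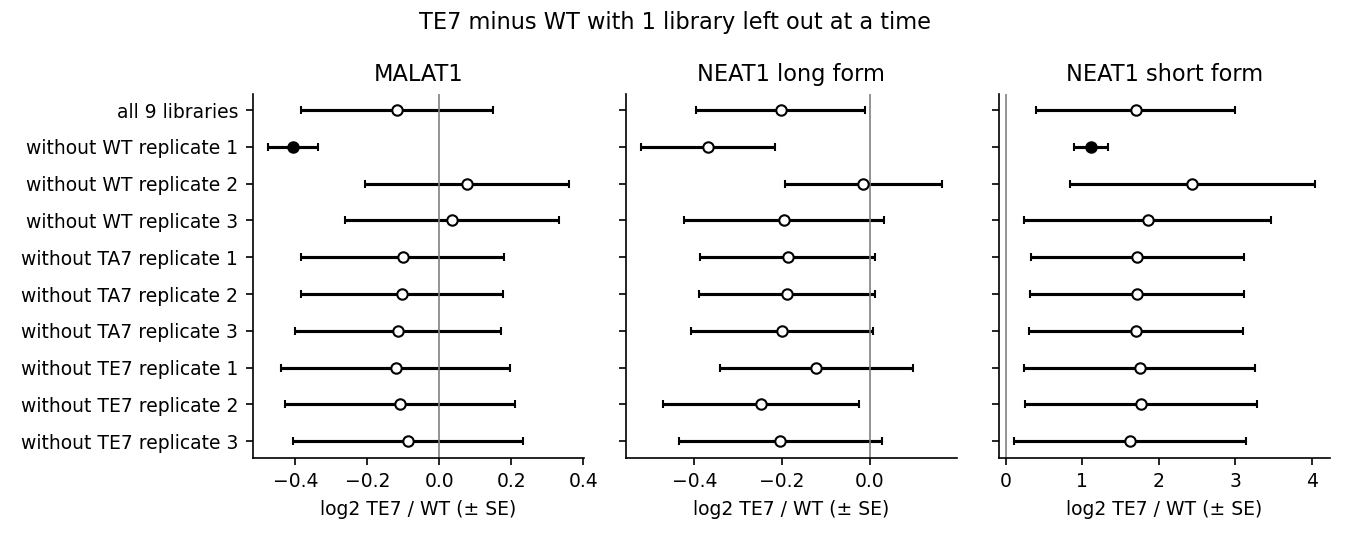
Log2 change of each transcript between TE7 and WT in the edgeR fit of all 9 libraries and with 1 library left out at a time, with its SE. Filled points passed an adjusted p of 0.05. Only the fits without WT replicate 1 have filled points, for MALAT1 at -0.41 and the short form at 1.12, and the MALAT1 value turned to 0.08 without WT replicate 2 and 0.04 without WT replicate 3.

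The second comparison set TA7 against the same 3 WT libraries, so it is not independent of the first. None of the 3 transcripts was called with all libraries, where 0.0612% of transcripts were. MALAT1 differed by 0.03 ± 0.27, TA7 minus WT (SE, interval -0.59 to 0.64), with edgeR adjusted p = 1. The long form differed by -0.05 ± 0.19 (interval -0.49 to 0.40), also with edgeR adjusted p = 1. The short form differed by 1.17 ± 1.28 (interval -1.80 to 4.14, edgeR adjusted p = 0.989), with groups that did not overlap, as for 14.1% of transcripts.

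Without WT replicate 1, again none was called, where 0.187% of transcripts were. MALAT1 turned to -0.26 ± 0.07 (interval -0.42 to -0.09, edgeR adjusted p = 0.31) and the short form was at 0.59 ± 0.22 (interval 0.08 to 1.11, edgeR adjusted p = 0.454). The WT and TA7 libraries then did not overlap for MALAT1 and for the short form, as for 27.6% of transcripts. The long form, at -0.21 ± 0.15, overlapped (edgeR adjusted p = 0.764).

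The third comparison, TE7 against TA7, does not use the WT levels, but the fit shares its estimate of the spread with WT. None of the 3 transcripts was called, where 3.07% were. MALAT1 was at -0.14 ± 0.27, TE7 minus TA7 (SE, interval -0.76 to 0.48, edgeR adjusted p = 0.857), and its groups did not overlap, as for 31.5% of transcripts. The long form was at -0.16 ± 0.19 (interval -0.60 to 0.29, edgeR adjusted p = 0.758). The short form was at 0.53 ± 1.27 (interval -2.40 to 3.46, edgeR adjusted p = 0.896), with groups apart.

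Nearly the same differences had smaller errors when WT replicate 1 did not enter the fit. Without it the short form was at 0.52 ± 0.19 (interval 0.07 to 0.97, edgeR adjusted p = 0.185) and MALAT1 at -0.15 ± 0.06 (interval -0.30 to -0.00078, edgeR adjusted p = 0.242). Neither passed, where 5.63% of transcripts did. With only the TE7 and TA7 libraries in the fit, the short form was at 0.52 ± 0.15 (interval 0.16 to 0.88, edgeR adjusted p = 0.1).

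**Figure D3:**
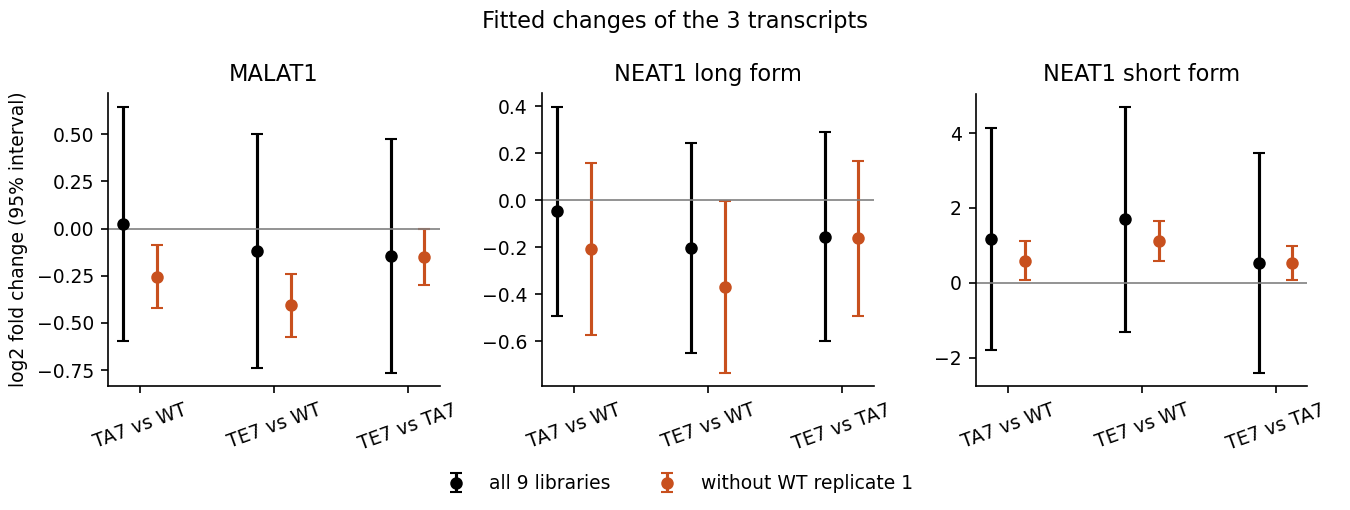
Log2 fold change and 95% interval of each transcript in the 3 comparisons (first group minus second), with all 9 libraries in black and without WT replicate 1 in orange. The intervals for the short form shrink from -1.31 to 4.71 to 0.59 to 1.64 in TE7 vs WT, and the MALAT1 value in TA7 vs WT changes sign.

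The ratio of the long to the short form of NEAT1 was taken from the 2 listed rows alone. In log2 of TPM it was -4.20 and -3.91 in WT replicates 2 and 3, and it has no value in WT replicate 1, where the short form is listed at 0. It was -5.07, -4.83 and -4.75 in TA7, and -5.69, -5.37 and -5.71 in TE7. The 8 libraries with a value thus stood in the order WT, TA7, TE7 without overlap. In linear terms the short form had 15.1 and 18.4 times the TPM of the long form in WT, 26.9 to 33.5 times in TA7 and 41.4 to 52.5 times in TE7.

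Between TE7 and TA7 the mean log2 ratio differed by -0.71, from -4.88 ± 0.16 to -5.59 ± 0.19 (SD, n = 3), or 1.63-fold. The exact permutation test gave p = 0.1 (two-sided), which is the smallest that 3 against 3 libraries allow, so the difference cannot pass 0.05 in this test. The TPM ratio cannot be formed for all WT libraries, so its comparisons with WT used only replicates 2 and 3. The plan made no ratio test where a form lacks reads in any library, so these comparisons stand outside it. Without WT replicate 1 the mean log2 ratio differed from WT by -1.53 in TE7 and by -0.83 in TA7, each with exact permutation p = 0.2 (two-sided), again the smallest possible for 3 against 2. Beside the difference between TE7 and TA7 stand mean levels of 46.0 against 31.9 CPM for the short form and 6.2 against 6.9 CPM for the long form.

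**Figure D4:**
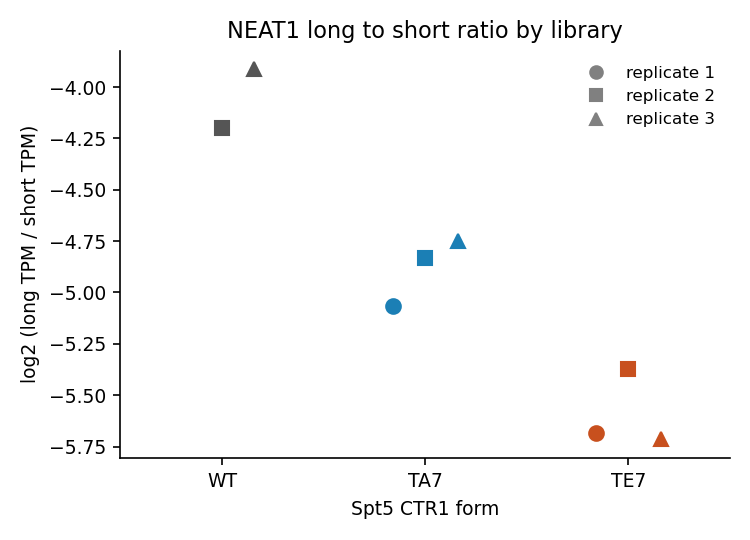
Log2 ratio of the TPM of the long form of NEAT1 to that of its short form in the 8 libraries where both have reads, by CTR1 form. Lower values mean relatively less long form. WT replicates 2 and 3 lie at -4.20 and -3.91. TA7 lies between -5.07 and -4.75, and TE7 between -5.71 and -5.37.

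MALAT1 and the long form of NEAT1 belong to the long transcripts, taken here as those of 8000 bases or more. Among 1770 tested transcripts of 8000 bases or more, the median log2 change between TE7 and WT was -0.45, with quartiles at -1.0 and -0.01, and 404 were called lower and 54 higher. Over all 78478 tested transcripts the median was -0.02, with 3775 called lower and 3603 higher. The values of -0.12 for MALAT1 and -0.20 for the long form of NEAT1 lay above the median of the long transcripts, with 69.9% and 64.3% of its members below them. Without WT replicate 1 the class median was -0.50 over 1824 transcripts, and MALAT1 at -0.41 and the long form at -0.37 lay near its middle, with 54.3% and 57.0% below. Between TE7 and TA7 the class median was -0.43, and MALAT1 (-0.14) and the long form (-0.16) lay above 72.1% and 71.2% of its members. The short form of NEAT1, of 3441 bases, is not in that class, and its log2 change between TE7 and WT was 1.70 with all libraries and 1.12 without WT replicate 1.

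**Figure D5:**
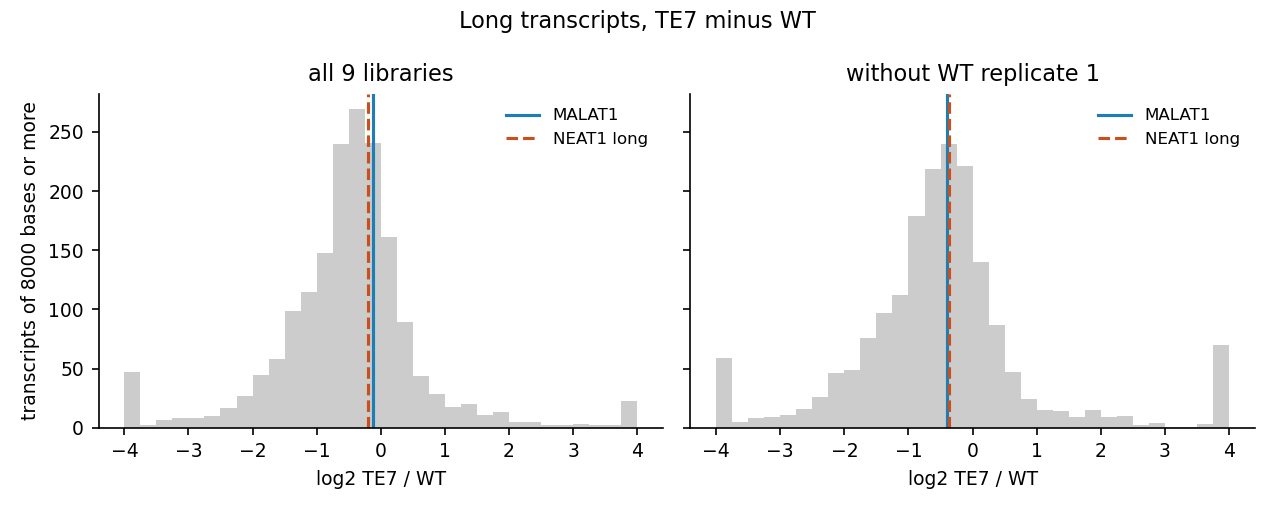
Number of tested transcripts of 8000 bases or more by log2 change between TE7 and WT, with all 9 libraries and without WT replicate 1. The end bars hold all values beyond them, and lines mark MALAT1 and the long form of NEAT1. With all libraries both lie to the right of the class median of -0.45, and without WT replicate 1 both lie near its median of -0.50.

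The transcript most like MALAT1 in its pattern over the 9 libraries was ENST00000645023.1_1, of 3300 bases, with a Pearson correlation of log2 CPM of 0.962. It was the highest of 19817 transcripts with a mean of at least 5 CPM, of which 27 exceeded 0.9. It was at 29.7, 72.7 and 68.9 CPM in WT replicates 1, 2 and 3, and thus also lowest in replicate 1. The TA7 libraries had 58.1 to 62.4 CPM of it and the TE7 libraries 50.9 to 60.2 CPM. It had more reads than the short row of NEAT1 in every library. In TE7 it lay below WT replicates 2 and 3, opposite to the short row. Whether it shares sequence with NEAT1 or MALAT1 was not tested, since it was not assigned to a gene here. If it is a transcript of NEAT1, the short row leaves out more NEAT1 reads than it holds. The order of the groups and the ratio given for the short row then need not hold for the gene. For the short form of NEAT1 the most similar transcript was ENST00000367572.3_2, of 2496 bases, with a correlation of 0.997. It also had 0 CPM in WT replicate 1, with 7.24 and 7.95 in the other WT libraries, 9.95 to 12.0 in TA7 and 18.6 to 19.7 in TE7. The shared low value in WT replicate 1 weighs heavily in both correlations.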

How the data were processed

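The submitters' processing notes name cutadapt 2.3, Salmon 1.3.0 and the build hg19. Which transcript set, library type and bias options Salmon used is not given in the sources used here. RNA was extracted with Trizol, selected with oligo-dT, and 1 ug was used for library preparation (Tecan/Nugen), per the labels. The expected counts (estimated reads) deposited by the authors divide shared reads among transcripts and are not normalized. TPM, also deposited by the authors, is relative to effective length.

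Estimated reads were rounded to whole numbers. Transcripts were filtered with the default of edgeR 4.0.16, which left 78478 that hold 99.67% to 99.79% of reads, and scaled by TMM (factors 0.92 to 1.037). A single quasi-likelihood model of group covered the 9 libraries, and p-values were adjusted over all transcripts tested, with a threshold of 0.05. SEs are the log2 change over the square root of F. The ratio was compared with exact permutation tests (scipy 1.17.1). The edgeR steps were tested on simulated data with the same dispersion for every transcript and no outlying library. That run does not cover a library like WT replicate 1. Alternatives used DESeq2 1.42.0 and limma 3.58.1. Depth was 64364751 to 90805283 reads; the floor of 3 reads covers counting error only, since reads were not matched to molecules, while the intervals of fold changes include the spread between libraries.

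Members and tests were chosen with earlier results of these data known. The transcripts named beside the members are those with the highest correlation of log2 CPM (prior count 2) for MALAT1 and for the NEAT1 form with more reads. The gene tables matched 0 transcript identifiers, so lists of paraspeckle and speckle genes and of cell markers, planned by symbol, are not analysed here.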

Additional observations from a re-analysis of the deposited data

How the results depend on the processing

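The calls in TE7 vs WT depended on WT replicate 1, while directions also turned when other libraries were left out. Leaving out 1 library gave -0.41 to 0.077 for MALAT1 in TE7 vs WT, -0.26 to 0.22 for MALAT1 in TA7 vs WT, -0.21 to 0.14 for the long form of NEAT1 in TA7 vs WT, and 1.12 to 2.44 for the short form in TE7 vs WT (log2). Without WT and TA7 replicates 1 together, MALAT1 was at -0.41 in TE7 vs WT (edgeR adjusted p = 0.0129) and -0.21 in TA7 vs WT, and the short form at 1.11 in TE7 vs WT (0.019). Near-zero values also turned in TA7 vs WT without TA7 replicate 2 (MALAT1 -0.018, long form 0.016) and without WT replicate 2 (long form 0.14). The long form in TA7 vs WT turned to 0.0011 in limma on log2(TPM + 1) and 0.024 with 0.1 added. Over all other alternatives listed for the 3 transcripts, no direction turned and no call changed, but values moved: the short form in TA7 vs WT was at 1.91 without WT replicate 2 and 2.71 in limma on log2(TPM + 0.1), in TE7 vs WT at 3.11 in that limma fit, and the long form in TE7 vs WT at -0.015 without WT replicate 2. The long to short ratio between TE7 and TA7 stayed between -0.82 and -0.64. In the comparisons with WT its alternatives without WT replicate 1 are given above; with 0.1 added to TPM, all libraries could be used and the difference was -3.33 for TE7 and -2.69 for TA7, each with exact permutation p = 0.1 (n = 3 per group), the smallest possible. The size of both rests on the 0 in WT replicate 1, and both stand outside the plan for the ratio.

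The numbers of transcripts called were 48 for TA7 vs WT, 7378 for TE7 vs WT and 2411 for TE7 vs TA7, and follow in that order. DESeq2 gave 2206, 15850 and 10502, fits of only the groups compared 0, 4899 and 4673 (TA7 vs WT in edgeR, with 4523 at an unadjusted p under 0.05), and no filter 4450 for TE7 vs WT and 1143 for TE7 vs TA7. At least 1 CPM in 3 libraries gave 96 for TA7 vs WT and 4311 for TE7 vs TA7, limma 119 and, with 0.1 added, 171 for TA7 vs WT. Without WT and TA7 replicates 1 together, TA7 vs WT gave 90 and TE7 vs TA7 5039. Leaving out 1 library gave 5 to 159, 3129 to 9902 and 298 to 4782. Except where named, the cause was not tested.

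With the replicate number as a block, edgeR called 0 transcripts in TA7 vs WT (5556 at an unadjusted p under 0.05; DESeq2 without a block called 2206) and 1097 in TE7 vs TA7. Deviations of same-numbered libraries correlated weakly, at -0.02 to 0.09, and the numbers were not taken to pair them. As a hint the other way, 11 of 18 library and group pairs correlated best with their own number. The block gave 2.03 for the short form and -0.06 for MALAT1 in TE7 vs WT.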
